A study of Mus musculus with 68 samples.

Results

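The 9 genes described here make, degrade, sense or divert the lipid sphingosine 1-phosphate: the sphingosine kinases Sphk1 and Sphk2, the lyase Sgpl1, the receptors S1pr1, S1pr2, S1pr3 and S1pr5, and the sphingomyelin synthases Sgms1 and Sgms2. They were taken by gene symbol from the 56748 rows of a gene count table, and each symbol matched 1 row. The members were put together with results of these data known, chiefly their response to Egf in liver at 2 h. Every Egf against vehicle value at 2 h below is therefore a description, printed without its p-value. Calls and counts at that time say on which side of a threshold a value fell and are no independent test. Wild-type female C57BL/6J mice, 10 weeks old, received 1 mg/kg Egf (epidermal growth factor) in PBS, or PBS alone as vehicle, by injection behind the eye under isoflurane. Heart, lung, kidney and liver were taken 2 h or 6 h later, and organs of untreated mice were added. Each organ gave 17 poly(A) RNA libraries: 4 of Egf and 3 of vehicle at each time, and 3 untreated. The untreated mice had neither injection nor anaesthesia described for them.

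Sphingosine 1-phosphate is made inside cells when a sphingosine kinase phosphorylates sphingosine. It is removed for good when the lyase Sgpl1 splits it, and it acts outside cells through a family of G protein-coupled receptors. S1pr1 is abundant on endothelial cells and on lymphocytes, where it guides their exit into blood and lymph, and S1pr5 is known from natural killer cells. Sphingomyelin synthases move phosphocholine from phosphatidylcholine onto ceramide, the precursor from which sphingosine is also released, and so set ceramide against sphingomyelin in the Golgi and the plasma membrane.

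The libraries held 13271813 to 24972005 gene counts. Of the members, 8 passed the filter on low counts in all 4 organs, and S1pr5 passed it in heart, lung and liver but not in kidney, where no library had more than 3 of its reads. Each organ carried the defining markers of its label (summed hepatocyte markers were at 105000 to 163000 CPM in liver, where CPM are counts scaled to 1000000 per library). Some libraries stood apart. A library was listed for another organ where that organ's marker sum was at least 10 times the median of its own organ's libraries and at least 500 CPM. For hepatocyte markers the heart median was itself 1210 CPM, so smaller amounts are not listed. Heart Egf at 2 h reached 9400 CPM without being listed. All 3 untreated heart libraries carried markers of another organ: hepatocyte markers at 16800 and 16100 CPM in replicates 1 and 3, and kidney proximal tubule markers at 961 CPM in replicate 2. The same was seen in heart vehicle 2 h replicate 1 (proximal tubule, 2230 CPM), heart vehicle 6 h replicate 2 (proximal tubule, 733 CPM), heart Egf 6 h replicates 1 (proximal tubule, 513 CPM) and 3 (hepatocyte, 15400 CPM), and lung Egf 6 h replicate 3 (hepatocyte, 32500 CPM). In liver, vehicle 2 h replicate 2 had 0.0126% of its counts on 18S ribosomal RNA, against 1.51% to 3.47% in the others, and Egf 2 h replicate 1 held adrenal cortex markers at 180 CPM.

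At 2 h after Egf, the liver showed higher Sphk1, S1pr3, Sgms1 and Sgms2 and lower S1pr5, Sphk2 and S1pr1 than after vehicle. These were 7 of the 9 members at an adjusted p under 0.05 (called, below), with 3.92% of the 13592 liver genes tested called in that comparison; because the members were chosen on it, nothing is read from the count. In each of these genes the 4 Egf libraries and the 3 vehicle libraries did not overlap, which describes the values only. The share of all genes with separate groups was not counted, here or in the comparisons below. By 6 h none of the 9 was called in liver.

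Promoter sequences are shown for the members that were higher together, since Egf signalling is known to reach factors of the AP-1 family, whose binding motif is TGANTCA. RefSeq windows on GRCm38.p6, from 250 bases before to 50 after an annotated start, were found for 8 of the 9 genes, 21 windows in all. The motif was in 5 of these windows, belonging to 3 genes: Sphk1, Sgms1 and Sgms2. The 2 Sphk1 windows among them overlap and hold the same site, so the count of windows includes it 2 times. Of all 32851 windows 7.81% held it, and of all 27025 genes 8.97%. Sphk1, Sgms1 and Sgms2 also had the most windows (5, 4 and 6, against 1 or 2 for each other matched gene). The 30-base runs below read 5′ to 3′ on the gene's strand, with the motif in capitals, and positions are of its first base.
Sphk1, chr11:116531776-116531805, plus strand, at -50 and -124 from 2 annotated starts and inside an annotated Sphk1 exon: gagcgtgtcgcTGAGTCAccttctcggaag
Sgms1, chr19:32211049-32211078, minus strand, at -54 from a start and in no annotated exon: tgcgcggggccTGACTCActtcattagctg
Sgms2, chr3:131490388-131490417, minus strand, at -176 from a start and inside an annotated Sgms2 exon: cgggcccggggTGAGTCAcggctgggagca
Sgms2, chr3:131490781-131490810, minus strand, at -139 from another start and in no annotated exon: gcaccacccctTGAGTCAgcgggtgcccct
The other motifs searched, on both strands, were the CRE TGACGTCA (1.79% of all windows), the Egr motif GCGNGGGCG (5.55%) and the CArG box (1.63%), and a match to the CRE cannot hold a match to the AP-1 motif. The CRE was in 1 window each of Sphk2 and S1pr2, and the Egr motif and the CArG box were in no window of any member. None of the 4 motifs was in the windows of Sgpl1, S1pr3 and S1pr5. A match describes these letters and is no evidence of binding.

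Sphk1 (ENSMUSG00000061878, mm39 chromosome 11, 116421751 to 116427501) encodes the inducible sphingosine kinase. In liver it was read at 0.287, 0.312 and 0.768 CPM after vehicle at 2 h and at 2.83, 2.13, 3.21 and 2.20 CPM after Egf. Every Egf library was above every vehicle library, although the vehicle values rest on 4 to 11 reads each. The log2 fold change was 2.50 ± 0.38 (SE), from 0.456 ± 0.271 (SD, n = 3) to 2.59 ± 0.519 CPM (SD, n = 4). Untreated liver had 0.265 ± 0.0438 CPM (SD, n = 3). The 7 summed neutrophil markers were at 3.27 to 9.30 CPM in the Egf livers at 2 h and 2.02 to 2.81 CPM in the vehicle livers, with Ly6g at 0 in both. Their part in the Sphk1 difference was not tested.

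Sphk2 (chromosome 7, 45358891 to 45367426), the mostly nuclear and mitochondrial kinase, went the other way in the same livers. It had 42.4, 37.0 and 27.4 CPM after vehicle and 18.2, 20.9, 14.4 and 12.9 CPM after Egf. The lowest vehicle library was above the highest Egf library, and the log2 fold change was -1.10 ± 0.18. On the opposite strand, the Sphk2 gene overlaps Dbp, a clock output gene, over 737 bases and Rpl18, a ribosomal protein gene, over 2546 bases, and the libraries were not directional. In liver at 2 h Dbp stood at 14.2 ± 6.36 CPM after vehicle (SD, n = 3) and 7.86 ± 2.53 CPM after Egf (SD, n = 4), a log2 fold change of -0.86 ± 0.52 that was not called. Rpl18 had a log2 fold change of 0.16 ± 0.20. The part of either in the Sphk2 counts was not tested.

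Sgpl1 (chromosome 10, 60934421 to 60983482), which degrades sphingosine 1-phosphate, was not called in liver at 2 h. Its values were 111, 86.9 and 106 CPM after vehicle and 69.4, 95.3, 73.0 and 85.1 CPM after Egf, with 1 Egf library inside the vehicle range, and the log2 fold change was -0.33 ± 0.14.

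Among the receptors, S1pr5 (chromosome 9, 21154208 to 21159739) had the lowest log2 fold change of the 9 members in liver, -2.59 ± 0.37. Untreated liver had 4.51, 4.90 and 6.24 CPM, vehicle at 2 h 2.66, 1.18 and 2.02 CPM, and Egf at 2 h 0.412, 0.224, 0.315 and 0.314 CPM. The 3 groups did not overlap, and the Egf libraries held only 4 to 7 reads each. At 6 h the level was back in the untreated range or near it, at 4.95, 3.96 and 7.58 CPM after vehicle and 4.96, 5.19, 8.15 and 7.01 CPM after Egf. The 8 summed markers of natural killer cells were at 2.95 to 3.75 CPM after Egf at 2 h and 2.22 to 2.81 CPM after vehicle. Of these, Klra8 was at 0 in both groups and Eomes at 0 after Egf. Their part in the S1pr5 difference was not tested. In bulk tissue, fewer cells of a type and less RNA per cell cannot be told apart.

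S1pr3 (chromosome 13, 51562675 to 51576833), a receptor of vascular smooth muscle, fibroblasts and endothelium, was higher. It had 3.66, 3.37 and 2.79 CPM after vehicle and 9.71, 7.51, 9.89 and 8.35 CPM after Egf, a log2 fold change of 1.44 ± 0.23. All 4 Egf libraries were above every other liver library of the series, whose highest was an untreated one at 4.44 CPM.

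S1pr1 (chromosome 3, 115504082 to 115508721) was lower, at 72.8, 98.1 and 72.8 CPM after vehicle and 51.4, 58.8, 50.2 and 32.0 CPM after Egf. The log2 fold change was -0.76 ± 0.17, and -0.57 ± 0.18, no longer called, without vehicle 2 h replicate 2, the library with little 18S RNA, which held the highest of these values. The 10 summed endothelial markers overlapped between the groups, at 148 to 174 CPM after Egf and 142 to 197 CPM after vehicle, with none at 0, and the 7 neutrophil markers were at 3.27 to 9.30 CPM after Egf against 2.02 to 2.81 CPM after vehicle, with Ly6g at 0 in both. Their part in the result was not tested. S1pr2 (chromosome 9, 20873657 to 20888077) differed little, with 5.10, 4.11 and 5.03 CPM after vehicle, 4.30, 4.71, 3.40 and 4.27 CPM after Egf, and a log2 fold change of -0.18 ± 0.19.

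Both sphingomyelin synthases were higher. Sgms1 (chromosome 19, 32100127 to 32367114), the Golgi enzyme, had 17.4, 14.6 and 15.8 CPM after vehicle and 31.6, 37.9, 40.8 and 30.2 CPM after Egf, a log2 fold change of 1.14 ± 0.17. Sgms2 (chromosome 3, 131112634 to 131197172), found also at the plasma membrane, had 65.0, 65.3 and 75.6 CPM after vehicle and 87.4, 111, 149 and 141 CPM after Egf, a log2 fold change of 0.83 ± 0.17. In neither gene did the groups overlap. Without Egf 2 h replicate 1, which carried adrenal markers and had the lowest Sgms2 value of its group, the log2 fold changes were 1.19 ± 0.18 for Sgms1 and 0.96 ± 0.16 for Sgms2, and those of Sphk1, S1pr3 and S1pr5 were 2.45 ± 0.41, 1.39 ± 0.25 and -2.75 ± 0.42.

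**Figure D1:**
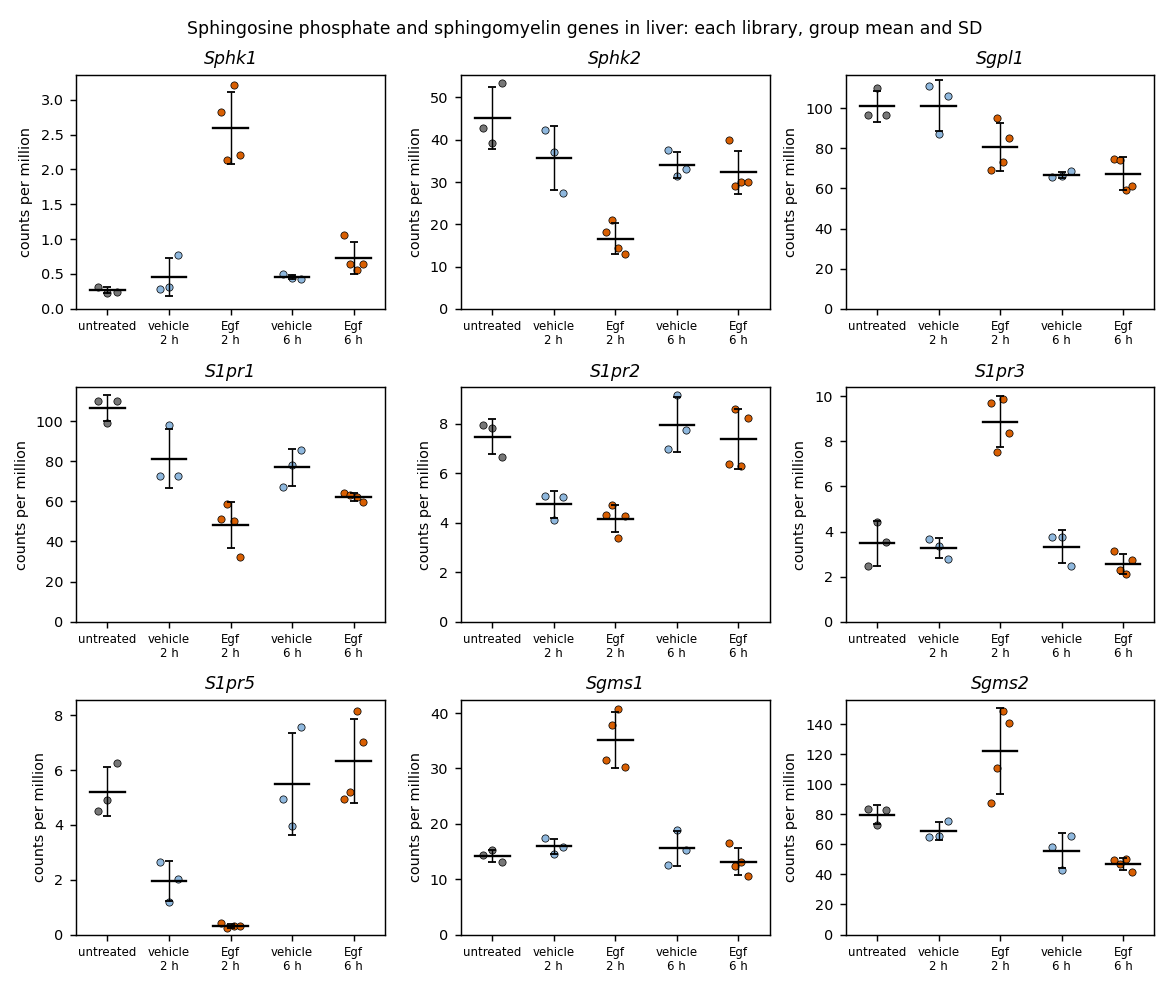
Level in CPM of the 9 genes in the 17 liver libraries by group (points, 1 per library; horizontal lines, group means; bars, SD; n = 4 for Egf groups and 3 for the others; each panel has its own linear axis from 0). At 2 h Sphk1, S1pr3, Sgms1 and Sgms2 lie above the vehicle libraries and S1pr5, Sphk2 and S1pr1 below them, while at 6 h most groups overlap.

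At 6 h in liver, edgeR called 0 of 9 members for Egf against vehicle, with 0.0883% of genes called, 0 members at an unadjusted p under 0.05, and 0 called by DESeq2 and by limma voom. The log2 fold changes ran from -0.37 ± 0.23 for S1pr3 to 0.65 ± 0.39 for Sphk1. Sphk1 was at 1.06, 0.642, 0.560 and 0.645 CPM after Egf and 0.495, 0.447 and 0.433 CPM after vehicle, groups that did not overlap but held 7 to 19 reads per library (adjusted p = 0.644). S1pr1 also had separate groups, at 63.9, 63.0, 62.3 and 59.6 CPM after Egf and 66.9, 78.2 and 85.5 CPM after vehicle (log2 fold change -0.30 ± 0.17, adjusted p = 0.619).

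The change of the Egf effect between times holds the 2 h values again, so it too is a description. The effect at 6 h minus that at 2 h was called for 4 of 9 members in liver, with 1.03% of genes called: S1pr5 (2.79 ± 0.47 on the log2 scale), S1pr3 (-1.80 ± 0.33), Sgms1 (-1.38 ± 0.24) and Sgms2 (-1.08 ± 0.24). The call on Sgms2 is the least secure, since it was lost on leaving out any of 9 single libraries, with values of -1.23 to -0.95 over all 14 omissions. Sphk1, at -1.84 ± 0.54, and Sphk2, at 1.02 ± 0.26, were not called by edgeR, while DESeq2 called Sphk2 (0.99) and limma voom called Sphk1 (-1.87). In the other organs no member was called by edgeR for this difference, where 0.0128% of genes were called in heart, 0.0417% in lung and 0.0192% in kidney. At an unadjusted p under 0.05 there were 1 member in heart, 3 in lung and 4 in kidney, and DESeq2 called 0, 2 and 0 and limma voom 0, 2 and 1. The lung calls of both tools were Sphk1 and Sgms2, whose edgeR values were -1.11 ± 0.20 and -1.22 ± 0.25.

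In lung, Sphk1 and Sgms2 were called higher at 2 h after Egf, 2 of 9 members, with 0.840% of the 16778 genes tested called. Sphk1 had 46.0, 50.6 and 60.5 CPM after vehicle and 86.5, 92.7, 95.6 and 107 CPM after Egf, a log2 fold change of 0.87 ± 0.14. Sgms2 had 17.4, 14.3 and 17.1 CPM after vehicle and 40.4, 30.5, 39.0 and 32.6 CPM after Egf, a log2 fold change of 1.13 ± 0.18. In neither gene did the groups overlap. The Sphk1 call was lost without vehicle replicate 1 (0.78) and the Sgms2 call without vehicle replicate 2 (1.05). Summed neutrophil markers were at 129 to 274 CPM after Egf and 73.3 to 119 CPM after vehicle, with none of the 7 genes at 0. Summed hepatocyte markers were at 1270 to 4520 CPM after Egf and 677 to 1300 CPM after vehicle. With the hepatocyte marker sum as a covariate, the log2 fold changes were 0.92 ± 0.15 for Sphk1 and 1.01 ± 0.17 for Sgms2. The part of either set of markers in these differences was not tested further.

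Lung S1pr3 was also separate between the groups, at 79.1, 63.2 and 58.3 CPM after vehicle and 130, 107, 88.4 and 118 CPM after Egf. Its log2 fold change of 0.73 ± 0.18 was not called by edgeR but was called by DESeq2 (0.72) and limma voom (0.82). Limma voom also called S1pr1 (0.54) and Sgms1 (0.47), whose edgeR values were 0.32 ± 0.19 and 0.31 ± 0.14. S1pr5, which was so much lower in liver, had a lung log2 fold change of 0.03 ± 0.35, with 1.95 to 4.30 CPM after Egf and 1.67 to 3.63 CPM after vehicle. The natural killer markers, at 28.6 to 67.3 CPM after Egf and 32.9 to 46.1 CPM after vehicle, were far more abundant in lung than in liver.

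In heart, 0 of 9 members were called at 2 h by edgeR, with 0.211% of genes called. There were 2 members at an unadjusted p under 0.05, and DESeq2 called 1 (Sphk1) and limma voom 0. Sphk1 had 6.69, 3.15 and 2.29 CPM after vehicle and 10.6, 10.9, 13.6 and 13.6 CPM after Egf. The groups did not overlap, and the log2 fold change was 1.59 ± 0.35. The highest vehicle value belongs to replicate 1, the library with kidney markers. Without that library the log2 fold change was 2.17 ± 0.34 and was called. Other measures also separated these hearts. Summed monocyte and macrophage markers were at 177 to 245 CPM after Egf and 119 to 145 CPM after vehicle, neutrophil markers at 2.72 to 8.67 and 0.844 to 1.72 CPM, and fibroblast markers at 890 to 952 and 663 to 881 CPM. Of the 6, 7 and 5 genes, 2 neutrophil markers were at 0 after vehicle and none otherwise. The libraries held 20255333 to 24972005 counts after Egf and 14054350 to 18278192 after vehicle. Counts on 18S ribosomal RNA were 1.01% to 1.66% after Egf and 0.537% to 0.803% after vehicle, and mitochondrial counts 12% to 16% and 17.3% to 20.1%. The part of these in the Sphk1 difference was not tested. The same library held 31.1 CPM of Sgms2, against 5.14 and 2.46 CPM in the other vehicle libraries and 5.49 to 15.8 CPM after Egf. The Sgms2 log2 fold change turned from -0.42 ± 0.71 with it to 1.35 ± 0.59 without it, neither of them called. Summed hepatocyte markers were at 127 to 9400 CPM in the Egf libraries and 70.9 to 143 CPM in the vehicle libraries. Untreated liver held more Sgms2 than untreated heart (126 against 12.9 CPM on 1 scale for all organs). With the hepatocyte marker sum as a covariate and all libraries kept, the Sgms2 value was -0.45 ± 0.8. The part of these markers was not tested further. Heart S1pr1 was at 69.8, 109 and 104 CPM after vehicle and 118, 121, 129 and 146 CPM after Egf (log2 fold change 0.44 ± 0.17, and 0.27 ± 0.17 without vehicle replicate 1).

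In kidney, 0 of the 8 members tested were called at 2 h by edgeR, with 0.256% of genes called. There were 4 at an unadjusted p under 0.05, and DESeq2 called 1 (S1pr3) and limma voom 2 (S1pr3 and Sgms2). S1pr3 had 15.2, 13.6 and 13.4 CPM after vehicle and 22.9, 19.4, 19.8 and 18.3 CPM after Egf, groups that did not overlap, with a log2 fold change of 0.51 ± 0.12. Sphk2 was lower in every Egf library, at 52.5, 48.0 and 49.5 CPM after vehicle and 43.2, 43.3, 42.8 and 42.0 CPM after Egf (-0.22 ± 0.09). Sgms2 had 183, 178 and 163 CPM after vehicle and 198, 212, 208 and 208 CPM after Egf (0.24 ± 0.09). Sphk1 reached 29.7 and 23.2 CPM in 2 Egf libraries but 12.2 and 13.3 CPM in the others, which lie within the vehicle range of 10.3 to 14.8 CPM (0.72 ± 0.30). Adrenal cortex markers were at 2.10 to 65.5 CPM in the Egf libraries and 1.40 to 2.13 CPM in the vehicle libraries. Their part was not tested.

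**Figure D2:**
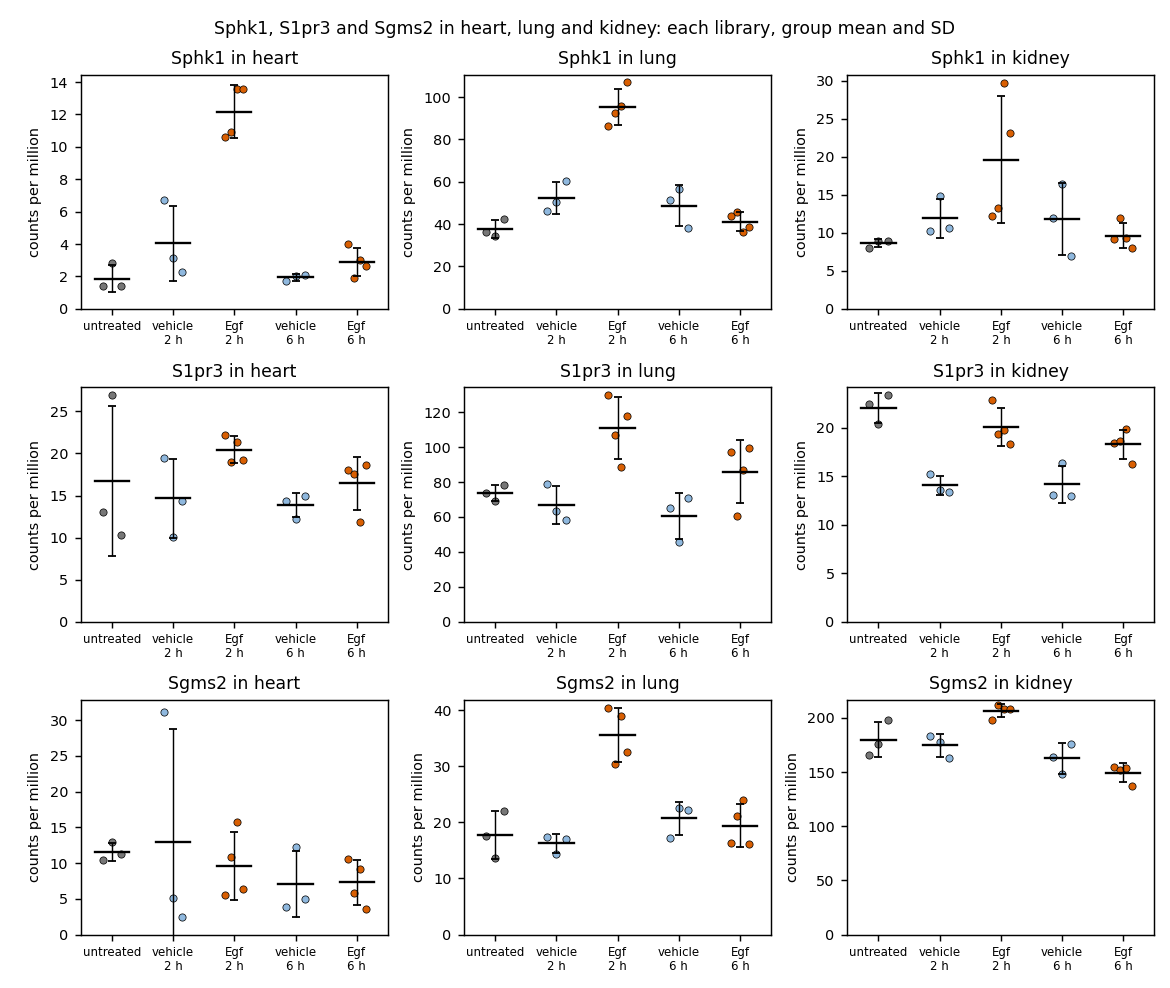
Level in CPM of Sphk1, S1pr3 and Sgms2 in heart, lung and kidney by group (points, 1 per library; lines, means; bars, SD; n = 4 for Egf groups and 3 for the others; each panel has its own linear axis from 0). After Egf at 2 h, Sphk1 in heart and lung, S1pr3 in lung and kidney and Sgms2 in lung and kidney lie above their vehicle libraries, and the heart vehicle library at 31.1 CPM of Sgms2 stands alone.

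At 6 h no member was called by edgeR in heart, lung or kidney, where 0.0128%, 0% and 0% of genes were called. At an unadjusted p under 0.05 there were 0, 2 and 1 members, DESeq2 called 0 in each, and limma voom called 2 in heart (Sphk2 and S1pr2), 0 in lung and 1 in kidney (S1pr3). The edgeR values in heart were 0.18 ± 0.13 for Sphk2 and 0.24 ± 0.13 for S1pr2. Without the libraries carrying another organ they were 0.16 ± 0.18 and 0.22 ± 0.18, neither called. Lung S1pr2 was at 69.6, 71.4, 65.7 and 70.8 CPM after Egf and 58.8, 55.5 and 60.2 CPM after vehicle. These groups did not overlap, with a log2 fold change of 0.25 ± 0.08 (edgeR adjusted p = 0.894), and 0.29 ± 0.09 without the library carrying hepatocyte markers. Kidney S1pr3 was at 16.3 to 19.9 CPM after Egf and 13 to 16.4 CPM after vehicle (0.37 ± 0.12, edgeR adjusted p = 0.523). In these kidneys, summed smooth muscle and pericyte markers were at 186 to 197 CPM after Egf and 137 to 162 CPM after vehicle. Fibroblast markers were at 204 to 239 and 169 to 197 CPM, and endothelial markers at 479 to 531 and 395 to 499 CPM. The part of these markers in the S1pr3 difference was not tested.

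**Figure D3:**
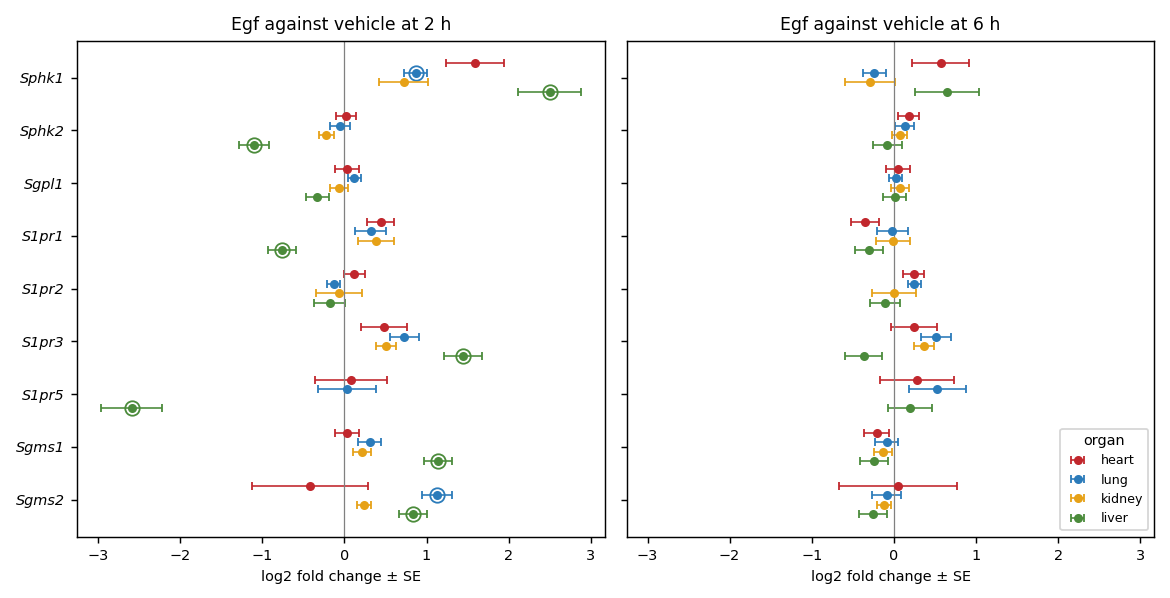
Log2 fold change of Egf against vehicle with its standard error for the 9 genes in 4 organs at 2 h (left) and 6 h (right), with larger open circles around values at an adjusted p under 0.05. S1pr5 has no kidney value. The circled values are 7 in liver and 2 in lung at 2 h, and none at 6 h.

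Whether the Egf effect differed among organs was read from 1 fit over all 68 libraries. The labels give 1 library of each organ the same number within a group, which may mark the mouse, though they do not say so, and the fit treats all libraries as independent. At 2 h, again as a description, it differed for 4 of 9 members, with 2.19% of genes called: Sphk2, S1pr1, S1pr5 and Sgms1. In that fit the Sphk2 effect was -1.06 ± 0.14 in liver and between -0.21 ± 0.13 and 0.02 ± 0.14 elsewhere. S1pr1 was at -0.72 ± 0.20 in liver and 0.31 ± 0.20 to 0.44 ± 0.20 elsewhere, the opposite sign. S1pr5 was at -2.57 ± 0.46 in liver, 0.11 ± 0.40 in heart, 0.02 ± 0.36 in lung and -0.96 ± 1.33 in kidney. This fit keeps the gene in kidney, where the libraries compared held at most 2 of its reads each. Sgms1 was at 1.17 ± 0.15 in liver and 0.03 ± 0.14 to 0.32 ± 0.14 elsewhere. Sphk1 (0.74 ± 0.26 to 2.54 ± 0.40) and S1pr3 (0.49 ± 0.21 to 1.47 ± 0.24) had positive values in every organ, and edgeR called no difference among organs for either, while limma voom called one for Sphk1 and for Sgms2 besides the 4. At 6 h edgeR called 0 of 9 members, with 0.048% of genes called, and the smallest adjusted p was 0.827, that of Sphk1. Only Sphk1 had an unadjusted p under 0.05 (0.0495), and limma voom called 0.

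Vehicle libraries were compared with untreated ones, a contrast that joins injection, anaesthesia and time of collection, which cannot be told apart, and that shares the vehicle libraries with the Egf comparisons. EdgeR called 1 member in 1 of the 8 comparisons, S1pr3 in kidney at 6 h. It had 22.4, 20.4 and 23.4 CPM untreated and 13.1, 16.4 and 13 CPM after vehicle at 6 h, a log2 fold change of -0.64 ± 0.12 (adjusted p = 0.043), with 0.211% of kidney genes called. At 2 h it was at 15.2, 13.6 and 13.4 CPM, with -0.65 ± 0.12 (edgeR adjusted p = 0.11), where 0.0256% of genes were called, 1 member had an unadjusted p under 0.05 and both DESeq2 and limma voom called it. The untreated libraries were above all vehicle libraries of both times. The 6 h call was lost on leaving out any of 5 single libraries (log2 values -0.76 to -0.56 over 6 omissions) and with RLE size factors, without the filter on low counts and with only the groups compared. Summed markers of smooth muscle and pericytes were at 137 to 162 CPM after vehicle at 6 h and 186 to 208 CPM untreated, those of fibroblasts at 169 to 197 and 244 to 303 CPM, and those of endothelium at 395 to 499 and 512 to 521 CPM, with none of the 7, 5 and 10 genes at 0. Counts on 18S ribosomal RNA were 3.28% to 3.69% after vehicle and 2.49% to 3% untreated. The part of these in the S1pr3 difference was not tested. After Egf at 2 h, kidney S1pr3 was at 18.3 to 22.9 CPM, overlapping the untreated libraries.

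In liver, edgeR called 0 members for vehicle against untreated at 2 h and at 6 h, where 0.155% and 0.67% of genes were called. Unadjusted p was under 0.05 for 3 members at each time. S1pr5 at 2 h came closest, at -1.42 ± 0.31 (adjusted p = 0.0897), with the groups apart, and was called by DESeq2 (-1.43) and by limma voom (-1.21), which also called S1pr2 (-0.67). At 6 h Sgpl1 was at 65.7, 66.0 and 68.5 CPM after vehicle against 96.5, 110 and 96.6 CPM untreated (-0.60 ± 0.15, edgeR adjusted p = 0.067), called by both other tools, and limma voom also called S1pr1 (-0.56). Summed endothelial markers were at 148 to 187 CPM in these vehicle livers and 208 to 237 CPM untreated, and the 5 sinusoidal endothelial markers at 121 to 145 and 164 to 191 CPM. The part of these markers in the S1pr1 value was not tested. In lung, where 0.0656% of genes were called at 2 h and 0.101% at 6 h, edgeR called 0 members, with 2 at an unadjusted p under 0.05 each time. Lung Sgms1 at 2 h was at 148, 136 and 198 CPM against 92.9, 113 and 95.7 CPM untreated (0.68 ± 0.15, edgeR adjusted p = 0.0928) and was called by both other tools, which called no member at 6 h. In heart, where 0.0128% were called at 2 h and 0.0192% at 6 h, all 3 tools called 0 members, with 2 and 0 at an unadjusted p under 0.05. The untreated heart libraries are those that carried markers of other organs.

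Levels in untreated mice differed among organs for 9 of 9 members by edgeR, where 90.5% of all genes tested did, so the count sets these genes apart from no others. Levels here are CPM on 1 scale for all organs, and CPM per kb of gene length where genes are compared. Sphk1 ran in the order lung 24.3 ± 2.81, kidney 7.47 ± 0.493, heart 2.08 ± 0.943 and liver 0.418 ± 0.0637 CPM (SD, n = 3 each), every step called. Its partner Sphk2 had its highest level in liver, where Sphk1 was lowest, in the order liver 71.5 ± 12.7, kidney 48.0 ± 3.25, heart 27.2 ± 1.97 and lung 27.0 ± 3.13 CPM, where no difference between heart and lung was called (edgeR adjusted p = 0.958). Per kb, liver thus held 17.2 ± 3.05 of Sphk2 and 0.0874 ± 0.0133 of Sphk1, and lung 6.5 ± 0.754 and 5.09 ± 0.588. Sgpl1 was highest in liver (160 ± 12.4 CPM), followed by kidney (96.3 ± 4.93), lung (62.6 ± 2.46) and heart (42.0 ± 1.62), every step called.

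S1pr1 had the highest mean level per kb of the 4 receptors in each organ, at 80.7 ± 23.5 in lung, 55.1 ± 3.48 in liver, 29.7 ± 7.33 in heart and 5.27 ± 1.03 in kidney, every step called, although in kidney S1pr3 was close at 4.29 ± 0.326. S1pr2 was highest in lung (42.8 ± 3.55 CPM), followed by liver (11.8 ± 0.941) and heart (10.3 ± 0.743), with no difference called between these (edgeR adjusted p = 0.346), and kidney (4.10 ± 0.445). S1pr3 was highest in lung (47.7 ± 3.07 CPM), followed by kidney (19.2 ± 1.46) and heart (18.7 ± 10.2), with no difference called between these (edgeR adjusted p = 0.919), and liver (5.51 ± 1.59). S1pr5 had its highest level in liver (8.26 ± 1.57 CPM), then lung (2.70 ± 0.313), heart (1.28 ± 0.399) and kidney (0.107 ± 0.057), every step called.

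Sgms1 was at 64.9 ± 6.98 CPM in lung, 57.9 ± 6.33 in kidney and 56.8 ± 9.0 in heart, with no difference called among these, and at 22.4 ± 1.57 in liver, lower than each. Sgms2 was at 156 ± 15.9 CPM in kidney and 126 ± 10.2 in liver, and at 12.9 ± 1.55 in heart and 11.5 ± 2.77 in lung, with no difference called within either pair. The 6 pairs of organs had 66.3% (heart and lung), 61.7% (heart and kidney), 61.9% (heart and liver), 63.8% (lung and kidney), 71% (lung and liver) and 56.4% (kidney and liver) of genes called. Markers of other organs stood beside the heart levels of Sgms2 and S1pr5: untreated heart replicates 1 and 3 had 12.7% and 10.8% of the hepatocyte marker sum of untreated liver, and 12.8% and 12.2% of its Sgms2 and 32.7% and 15.5% of its S1pr5. Replicate 2 had 0.96% of that marker sum, 14.5% of the Sgms2 and 21.9% of the S1pr5, and it had 5.25% of the proximal tubule marker sum of untreated kidney and 6.84% of its Sgms2. The part of the other organ in these levels was not tested.

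**Figure D4:**
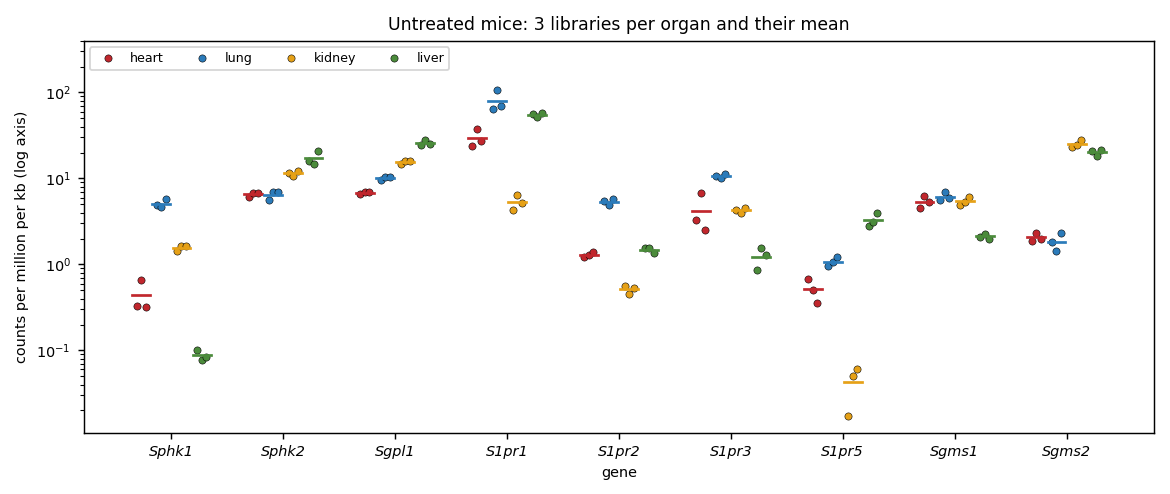
CPM per kb of gene length in untreated mice, on a log axis, for the 9 genes in heart, lung, kidney and liver (points, 3 libraries per organ; lines, means). Sphk1 is highest in lung and lowest in liver, S1pr5 highest in liver and lowest in kidney, and Sgms2 is higher in kidney and liver than in heart and lung.

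The rest of sphingolipid metabolism was followed through 41 further genes, of which 35 to 40 passed the filter in each organ. In liver at 2 h, 3 of 35 were called, against 3.92% of all liver genes tested. Ugcg, glucosylceramide synthase, which competes with the sphingomyelin synthases for ceramide, was higher (16.7 ± 2.14 to 41.4 ± 8.98 CPM, log2 fold change 1.31 ± 0.18). Spns2, an exporter of sphingosine 1-phosphate, was lower (24.4 ± 2.86 to 10.7 ± 2.20 CPM, -1.19 ± 0.18), as was Degs1, the desaturase that makes ceramide (85.0 ± 11.9 to 52.3 ± 13.1 CPM, -0.70 ± 0.16). The median of the 35 was 0.10, with 23 above 0. At 6 h edgeR called none of these genes in liver (2 at an unadjusted p under 0.05), where 0.0883% of all genes were called. In heart, lung and kidney edgeR called none at either time, against 0.211%, 0.840% and 0.256% of all genes at 2 h and 0.0128%, 0% and 0% at 6 h, with 2 to 7 at an unadjusted p under 0.05.

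Genes of the most similar pattern were ranked by Pearson correlation of log2 CPM across the 68 libraries, after the organ mean was taken out, among 12598 genes. The points share treatment groups, so the values describe and are not tested. For Sgms1 the nearest were Bcl2l1 (0.88), Mcl1 (0.86) and Bcl10 (0.83), and Bcl2l1 (0.79) and Arf6 (0.80) were also near Sphk1, whose nearest was the unnamed gene ENSMUSG00000121069 (0.85). S1pr5 was nearest Fgfrl1 (0.88), Mtmr4 (0.87) and Sun1 (0.87) among 12800 genes, over the 51 libraries of 3 organs. S1pr3 was nearest Spred1 (0.75), an inhibitor of Ras signalling, Sphk2 nearest Dyrk1b (0.82) and Sgms2 nearest Sdc4 (0.76). Sgpl1, S1pr1 and S1pr2 had no neighbour above 0.71.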

How the data were processed

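The values are raw counts per gene, deposited by the authors as 1 table for 68 libraries of 4 mouse organs. Per the submitters' processing notes, HISAT2 2.0.5 and featureCounts 1.5.0-p3 were used with mm39, and per the labels' protocols the libraries were non-directional. The labels do not state that each replicate was a separate mouse, so p-values measure the spread between these libraries. Counts were fitted per organ with edgeR 4.0.16 (R 4.3.3; filterByExpr, TMM, robust quasi-likelihood test over 5 groups, Benjamini-Hochberg adjustment over all genes tested, threshold 0.05), and in 1 fit of all libraries for organ differences. Standard errors of log2 fold changes were derived from the F statistic. CPM use TMM library sizes, within an organ unless stated. The text names all 9 members, called genes of the 41-gene list (at most 4 per comparison) and the 3 genes most like each member, of which some are given. Members and lists were chosen with earlier results of these data known. Alternatives used limma 3.58.1 (voom with quality weights), DESeq2 1.42.0, RLE size factors, no filter, the replicate block and omission of libraries. Outside liver, the hepatocyte marker sum on the log2 scale was also used as a covariate. The pipeline was also run on counts simulated with 1 fixed spread for all genes and organs. The fitted spread differed among organs, with a common biological coefficient of variation of 0.192 in kidney and 0.389 in heart. That run therefore measures neither power nor false calls in these data. Promoter windows are RefSeq's on GRCm38.p6. Depth limits low genes: 1 read is under 0.1 CPM.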

Additional observations from a re-analysis of the deposited data

Results flagged for a closer look

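In 5 of the 72 sets of 4 Egf libraries (9 genes, 8 groups), 1 library lay far from the other 3, where chance gives about 1 in 20. In liver Egf 6 h replicate 1, Sphk1 was at 1.06 CPM against 0.56 to 0.645, and Sphk2 at 39.9 CPM against 29 to 30.1. Sgpl1 in lung Egf 2 h replicate 3 was at 102 CPM against 110 in each of the others. S1pr3 in heart Egf 6 h replicate 3, a library with hepatocyte markers, was at 11.8 CPM against 17.5 to 18.6. S1pr5 in kidney Egf 2 h replicate 1 was at 0.0681 CPM, a single read, against 0.

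The liver effect of Egf was not the same at 6 h as at 2 h, a gap of the later minus the earlier effect being called for S1pr5 (2.79 on the log2 scale), S1pr3 (-1.8), Sgms1 (-1.38) and Sgms2 (-1.08). Between the organs with the highest and the lowest effect at 2 h, the gap was 2.68 on the log2 scale for S1pr5, 1.16 for S1pr1, 1.14 for Sgms1 and 1.08 for Sphk2. Liver was at the low end for S1pr5, S1pr1 and Sphk2 and at the high end for Sgms1. These differences rest on the 2 h contrast on which the members were chosen.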

How the results depend on the processing

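Of the values of single members under the other settings tried, 2591 kept their side of the threshold, 41 gained a call and 21 lost one. No value that was called, or was over 2 SE from 0, changed sign; smaller values could, as heart Sgms2 at 2 h did without vehicle replicate 1 (-0.42 to 1.35). In liver at 2 h the count of 7 was the same with RLE size factors, no filter, DESeq2, limma voom, the groups compared alone and the replicate block, and 6 to 7 on leaving out single libraries. The members were chosen on these same libraries, so this describes the processing and adds no support. Counts of members called changed by over 1.5 times as follows; the causes were not tested. Heart Egf at 2 h went from 0 to 1 with DESeq2 and without the libraries carrying another organ (0 to 1 on leaving out single libraries), and heart Egf at 6 h from 0 to 2 with limma voom. Lung Egf at 2 h went from 2 to 5 with limma voom (1 to 2 on leaving out single libraries), lung vehicle at 2 h from 0 to 1 with DESeq2 and limma voom, and the lung time difference from 0 to 1 without the filter and 2 with DESeq2 and limma voom (0 to 1 on leaving out single libraries). Kidney went from 0 to 1 with DESeq2 and 2 with limma voom for Egf at 2 h, to 1 with limma voom for Egf at 6 h and for the time difference, and to 1 with both for vehicle at 2 h. Kidney vehicle at 6 h went from 1 to 2 with limma voom and to 0 with RLE size factors, without the filter, with the groups compared alone and with the replicate block (0 to 1 on leaving out single libraries). Liver vehicle at 2 h went from 0 to 1 without the filter, with DESeq2 and with the replicate block, and to 2 with limma voom; liver vehicle at 6 h went to 1 with DESeq2 and 2 with limma voom. The liver time difference gave 3 to 5 calls on leaving out single libraries, and Sphk2 gained its call there under the replicate block (1.02). For the Egf effect among organs at 2 h, the block of the number shared by the organs gave 5 calls in place of 4, the added one on Sphk1, and limma voom gave 6, with Sphk1 and Sgms2 added.

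Under the replicate block, vehicle against untreated had an adjusted p (edgeR) of 0.0207 for liver S1pr5 at 2 h (log2 -1.43) and 0.0964 for kidney S1pr3 at 6 h (-0.64). Whether the numbers pair libraries cannot be told from the correlations made, since differently numbered libraries were not compared. Of 24 same-numbered pairs of Egf and vehicle libraries, 6 correlated above 0.1 in their deviations from the group means (range -0.54 to 0.66). Of 102 pairs of organs with the same number, 40 did (-0.35 to 0.69). Vehicle against untreated in heart without the libraries carrying another organ could not be run, since no untreated library was left.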
